A study of Homo sapiens with 6 samples.

Results

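The genes described here were 54 genes of mitosis and G2 phase, chosen by symbol from the 60675 rows of the deposited table. Each symbol matched 1 row, and all 54 passed the filter on low counts that left 14613 genes in the test of all 6 libraries. Messenger RNA came from SUM159, an established cell line of human triple-negative breast cancer, in 3 libraries labelled DAPK3 KO (cells in which the kinase gene DAPK3 was to be knocked out) and 3 labelled control, with the genotype DAPK3 WT. The KO cells were from 1 knockout line, numbered 3 in the protocols, and both genotypes were grown in the same Ham's F-12 medium with serum, HEPES, insulin and hydrocortisone. Whether replicate libraries were made from separate cultures is not in the labels, and the p-values below measure library-to-library spread, which may be technical. In bulk RNA, fewer cells in G2 and mitosis and less of these transcripts in each such cell cannot be told apart.

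In 1 library of each label, DAPK3 RNA went against the label. Expressed as CPM (counts scaled to a common library total, comparable between libraries but not between genes of different length), it measured 13.1, 27.0 and 11.3 in the libraries labelled KO R1, R2 and R3, against 26.1, 10.6 and 25.9 in those labelled control R1, R2 and R3, from 219 to 536 expected counts. Whether the R2 libraries were exchanged was not tested. If they were, each value by label below would hold 1 library of the other genotype in each group. The libraries are therefore called by their labels. The members were tested with the 3 against 3 labelled libraries and again without both R2 libraries, which leaves 2 of each label. Where a gene is named, its values from 1 or both tests may be left out. Library totals ran from 16312184 to 22970823 expected counts, and mitochondrial transcripts took 4.16% to 5.43% of counts under the KO label and 4.39% to 6.85% under the control label. Of the luminal and epithelial markers, PGR was at 0 throughout, EPCAM and CDH1 did not pass 0.0499 CPM, and ESR1 did not pass 0.483 CPM. GATA3 and ERBB2 of the same list were present. GATA3 measured 3.72 to 10.3 CPM, and ERBB2 52.1 to 58.8 CPM under the KO label and 68.6 to 96.9 CPM under the control label. The 8 blood, endothelial and liver markers summed to 0.483 to 4.10 CPM under the KO label and 1.88 to 4.63 CPM under the control label, with CDH5 at 0 in every library. Within that list the leukocyte gene PTPRC measured 0.106, 3.25 and 0 CPM in KO, against 2.97, 0.0483 and 2.89 CPM in control, in the order R1, R2 and R3 used from here on. Of the 4 mesenchymal markers, VIM (vimentin) measured 1423, 2729 and 1829 CPM in KO, against 3573, 1918 and 2720 CPM in control, and FN1 (fibronectin) 461, 3797 and 516 CPM in KO, against 3892, 425 and 4252 CPM in control. AXL, a receptor kinase, measured 122.5, 443 and 197 CPM in KO, against 447, 161 and 372 CPM in control, and CD44, an adhesion receptor, 303, 417 and 412 CPM in KO, against 524, 437 and 440.4 CPM in control. PTPRC, VIM, FN1 and AXL divide the libraries as DAPK3 does, CD44, ERBB2 and GATA3 do not, and their part in the results was not tested.

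Cells enter mitosis when CDK1 bound to cyclin B is dephosphorylated by the CDC25 phosphatases. Kinetochores then attach chromosomes to spindle microtubules, kinesin motors and their partners move and bundle those microtubules, and the spindle checkpoint restrains the anaphase-promoting complex (APC/C) until all kinetochores are attached. Most genes of this programme are transcribed late in the cell cycle, through FOXM1, MYBL2 and the MuvB complex, which binds a promoter element called the CHR, often close to CCAAT boxes bound by the factor NF-Y.

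The promoters of 6 members are printed, since the CHR is a promoter element that genes of this kind share. In each role, the member with the highest level among those holding a CHR word in the printed bases was taken. The 6 of these with the highest level are shown. Each line therefore holds a CHR word by choice, and whether the element bears on the levels was not tested. Each line runs 5′ to 3′ on the gene's strand from 120 bases before to 30 bases after the start annotated by RefSeq on GRCh38.p14. Capitals mark the CHR words TTTGAA and TTTAAA and the CCAAT box CCAAT, each read on either strand.
CCNB1, chr5:69167030-69167179, plus strand: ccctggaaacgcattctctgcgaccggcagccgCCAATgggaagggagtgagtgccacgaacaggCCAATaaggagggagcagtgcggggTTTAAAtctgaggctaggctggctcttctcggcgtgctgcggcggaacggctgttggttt
CDC20, chr1:43358861-43359010, plus strand: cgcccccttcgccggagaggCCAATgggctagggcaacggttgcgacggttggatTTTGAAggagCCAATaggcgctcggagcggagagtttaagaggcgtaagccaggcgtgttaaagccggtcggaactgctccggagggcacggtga
CENPF, chr1:214603075-214603224, plus strand: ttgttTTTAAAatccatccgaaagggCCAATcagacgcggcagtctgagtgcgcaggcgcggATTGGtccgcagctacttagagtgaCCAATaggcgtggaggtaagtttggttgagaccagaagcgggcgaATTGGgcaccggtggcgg
PRC1, chr15:90994506-90994655, minus strand: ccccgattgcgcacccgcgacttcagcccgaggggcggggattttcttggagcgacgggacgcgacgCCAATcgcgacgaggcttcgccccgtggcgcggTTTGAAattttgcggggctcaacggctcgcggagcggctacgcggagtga
ANLN, chr7:36389742-36389891, plus strand: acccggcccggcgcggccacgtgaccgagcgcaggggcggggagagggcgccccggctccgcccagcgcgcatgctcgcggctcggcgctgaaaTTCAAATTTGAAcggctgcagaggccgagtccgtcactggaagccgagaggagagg
MKI67, chr10:128126394-128126543, minus strand: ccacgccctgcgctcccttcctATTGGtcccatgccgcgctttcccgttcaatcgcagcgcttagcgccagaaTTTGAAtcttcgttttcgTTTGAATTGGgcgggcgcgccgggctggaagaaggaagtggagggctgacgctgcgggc
In CCNB1 the CHR word starts at base -30 and the CCAAT boxes at -87 and -55, while in CDC20 the CHR word starts at -65 between CCAAT boxes at -100 and -55. CENPF has its CHR word at -115 and 4 CCAAT boxes, PRC1 has a CHR word at -20 and a CCAAT box at -53, and ANLN has CHR words at -26 and -20 with no CCAAT box in these bases. MKI67 has CHR words at -47 and -29 and CCAAT boxes at -98 and -24, of which the one at -24 overlaps the CHR word at -29. All distances are from the RefSeq start. The 30 bases after it were found in a GENCODE transcript of the gene for CCNB1, CENPF, PRC1 and ANLN, but not for CDC20 and MKI67.

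Over the longer window of 250 bases before to 50 after the start, a promoter was in the RefSeq set for 46 of the 54 members. AURKA, BIRC5, BUB3, FOXM1, RACGAP1, TPX2, TTK and UBE2C are named only. Either CHR word was present for 41 of the 46 (89.1%), against 27.9% of the 27305 genes with a window and 21.7% of the 9866 such genes that were tested. TTTGAA alone was present for 34 members (73.9%, against 18.2% of all genes) and TTTAAA for 17 (37.0%, against 14.5%). A CCAAT box was present for 35 members (76.1%, against 39.7%), and both kinds of word for 31 (67.4%, against 11.2%). The words lay close to the start, since 40 of the 72 CHR words in the members' windows (55.6%) began in the 100 bases before it, against 30.1% of such words in all windows, and 52 of the 79 CCAAT boxes (65.8%) did, against 44.0%. These are matches of letters, not measured binding. The 5 members with a window and no CHR word were AURKB, BUB1, CCNA2, CKAP2 and MYBL2.

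**Figure D1:**
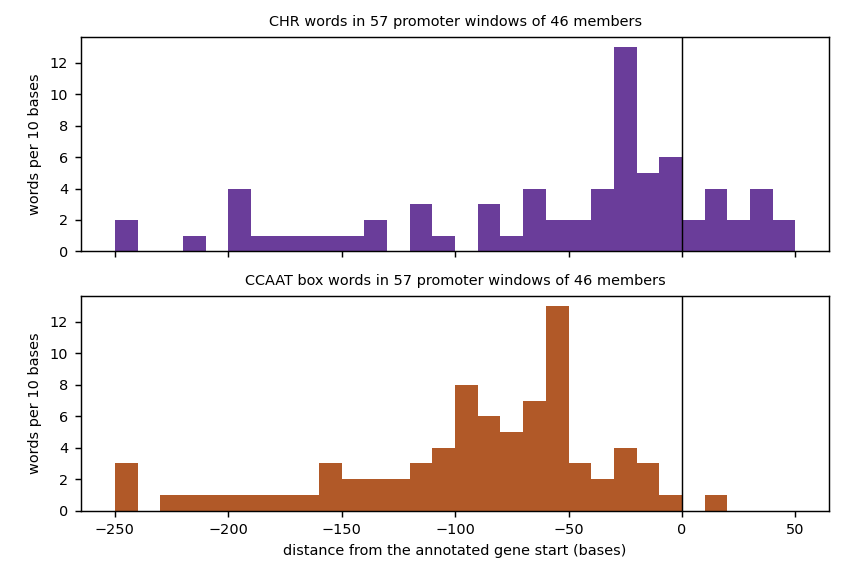
Positions of CHR words and CCAAT boxes in the promoter windows of members (upper and lower panel; horizontal axis, distance from the annotated start in bases; bars, number of words per 10 bases in 57 windows of 46 members). The CHR words of members have their median at base -29 and the CCAAT boxes at base -85.

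Nearly every member had a lower mean RNA level in the libraries labelled KO, but libraries of the same label differed widely, and edgeR called no member where DESeq2 called 2. The summed level of the 54 genes was 4064, 5592 and 5029 CPM in KO, against 7783, 5495 and 6645 CPM in control. KO R1 was the lowest library, control R1 the highest, and the library labelled control R2 lay among the KO libraries, just below KO R2. The median member, on log2 CPM minus its own mean, stood at -0.53, -0.01 and -0.18 in KO and at 0.47, -0.03 and 0.23 in control, while the median of all genes stayed within -0.0037 to 0.0206 in every library. KO R1 held the lowest value of the 6 libraries for 49 of the 54 members (90.7%, against 20.3% of all genes), and control R1 the highest for 44. For 42 members both were true.

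**Figure D2:**
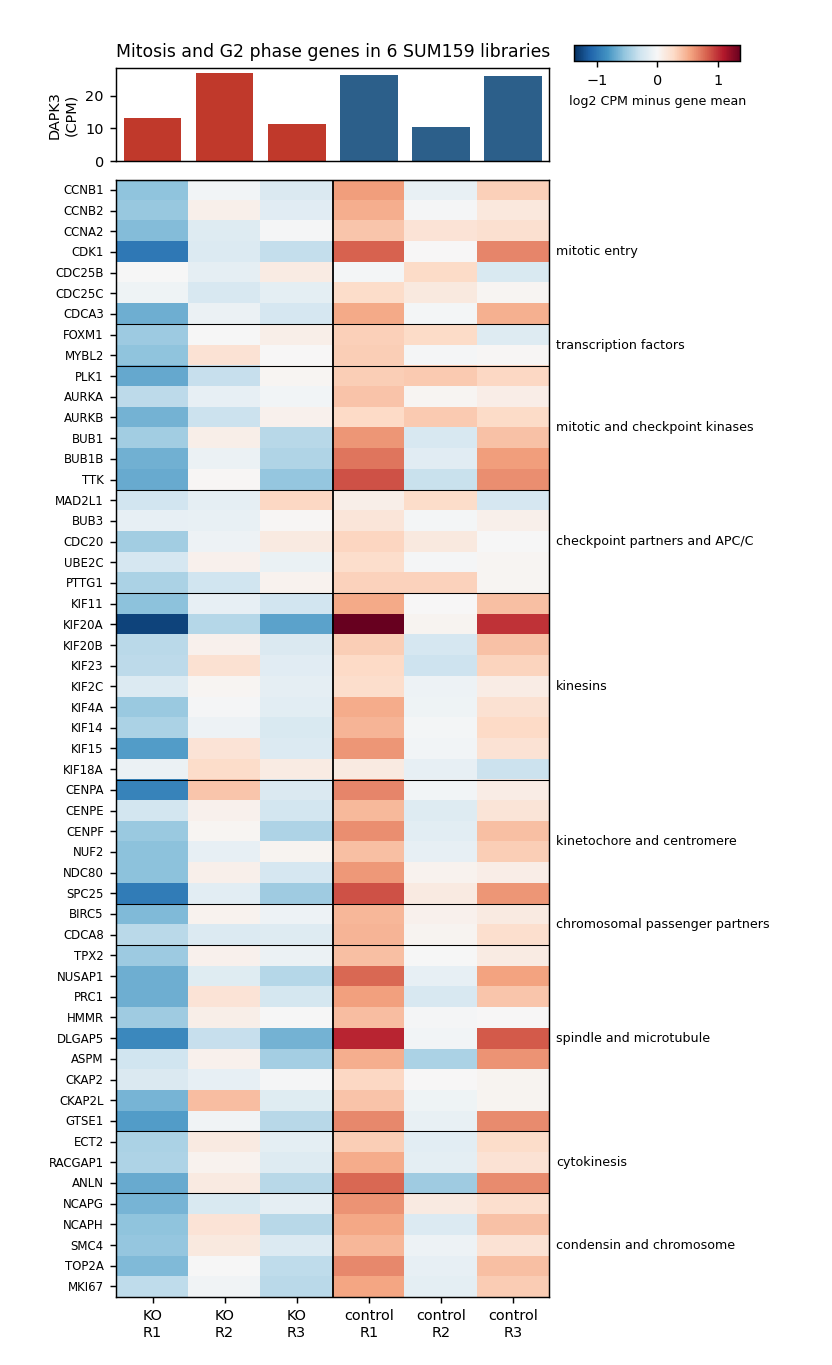
Level of each of the 54 members in each library (lower panel; rows, genes by role; columns, the 3 libraries labelled KO and then the 3 labelled control; colour, log2 CPM minus the gene's mean, red high and blue low), with DAPK3 CPM in the bars of the upper panel. KO R1 is the lowest library for 49 members, and control R1 the highest for 44.

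With 3 libraries against 3, the log2 fold change of KO over control was below 0 for 53 of the 54 members, against 50% of all genes tested. The members' median was -0.47, beside -0.000341 for all genes, and values ran from -1.66 for KIF20A to 0.18 for KIF18A. At an unadjusted p under 0.05, 21 members (38.9%) were lower and 0 higher, against 4.17% of all genes lower and 3.49% higher. After Benjamini-Hochberg adjustment, edgeR's quasi-likelihood test called 0 of 14613 genes (0%), 0 of them members, and the members' adjusted p ran from 0.635 to 0.971. DESeq2 called 124 genes on the same counts, among them the members KIF20A (log2 fold change -1.66, SE 0.38, adjusted p = 0.00496) and DLGAP5 (log2 fold change -1.29, SE 0.33, adjusted p = 0.0174). The count of 21 depended on the libraries, and the share of all genes that were lower moved in the same direction. The count was 11 without KO R1 (against 2.37% of all genes), 32 without KO R2 (against 9.06%) and 13 without KO R3 (against 2.75%). Without control R1 it was 9 (against 1.42%), without control R2 35 (against 8.22%) and without control R3 12 (against 2.77%).

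Without both R2 libraries, 35 of the 54 members (64.8%) were lower in the remaining KO libraries at an edgeR adjusted p under 0.05, against 15.2% of the 14846 genes tested, and 0 members were higher, against 12.2%. These shares of all genes also stand beside the counts called by role below. The members' median was -0.69, beside -0.0211 for all genes, and 11 members were at -1 or below. Near the threshold, TPX2 (adjusted p = 0.0459) and CKAP2L (adjusted p = 0.0485) were called, while BIRC5 (adjusted p = 0.0506) and NUF2 (adjusted p = 0.0566) were not, in the same edgeR fit. With 1 more library left out, which leaves a lone library in 1 group, the members' median ran from -0.901 to -0.552. The R2 libraries were picked out by their DAPK3 RNA, so these p-values are no independent evidence for the labels.

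**Figure D3:**
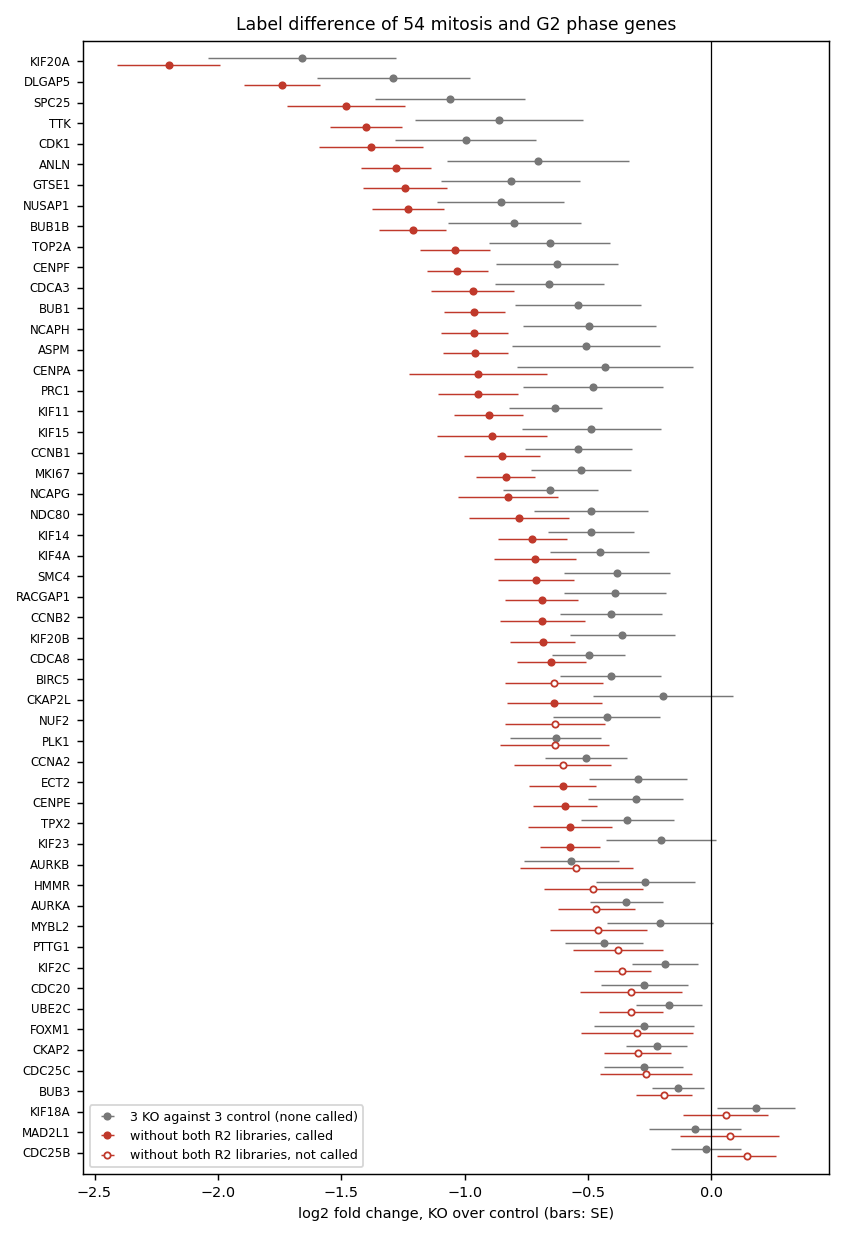
Log2 fold change of KO over control for the 54 members (horizontal axis, with bars of 1 SE), from 3 libraries against 3 (grey) and without both R2 libraries (red, filled where called). The members' median is -0.47 with all libraries and -0.69 without both R2.

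The division by label and the division by DAPK3 RNA were both visible in the members. All 3 libraries labelled KO lay below all 3 labelled control for 17 members (31.5%), against 6.99% of all genes, and the reverse held for 0, against 6.59%. The 3 libraries with more DAPK3 RNA (control R1, control R3 and KO R2) lay above the other 3 for 29 members (53.7%), against 21.2% of all genes, and below them for 1, CDC25B, against 22.6%. The labels were also compared within each level of DAPK3 RNA, where a lone library stands against the others. All members share these libraries, so the counts are not independent and cannot separate the label from a difference of that library. Among the libraries with more DAPK3 RNA, KO R2 was below both control R1 and control R3 for 45 of the 54 members, against 37.2% of all genes, and among those with less, both KO R1 and KO R3 were below control R2 for 43 of the 54, against 35.2% of all genes. Both held for 38 members (70.4%), against 19% of all genes, and the opposite in both for 1, KIF18A, against 18.1%. Between the R2 libraries themselves, KO R2 was below control R2 for 23 of the 54, against 52.3% of all genes. With log2 CPM of DAPK3 as a covariate beside the label, 27 members (50%) were lower and 0 higher under the KO label at an unadjusted p under 0.05, against 8.36% of all genes lower and 8.47% higher, and edgeR called 0 genes after adjustment (0%). The members' median in that fit was -0.34, and KIF20A was at -1.39 (SE 0.21, edgeR adjusted p = 0.108).

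**Figure D4:**
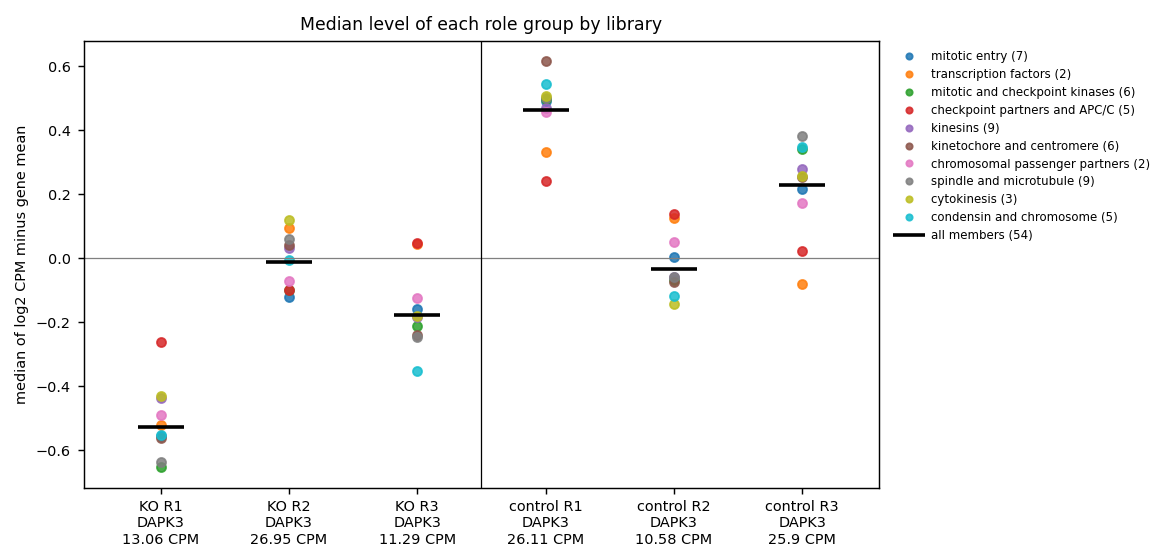
Median of the members of each role in each library (vertical axis, log2 CPM minus the gene's mean; points, 1 per role with its number of members in the legend; black bars, all 54 members; horizontal axis, the libraries with their DAPK3 CPM). In mitotic entry genes KO R2 is at -0.12 and control R2 at 0.01, while in cytokinesis genes KO R2 is at 0.12 and control R2 at -0.14.

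Among 7 genes of mitotic entry, 4 were lower at an unadjusted p under 0.05 in the labelled comparison, and 4 were called lower without both R2 libraries. CDK1, the kinase that starts mitosis (ENSG00000170312, chr10:60778331-60794852, plus strand), measured 31.9, 55.1 and 50.2 CPM in KO, against 110.3, 63.0 and 99.8 CPM in control. Every KO library lay below every control library, with KO R1 lowest, and control R2 was the nearest to the KO values. The means were 45.8 ± 12.2 CPM in KO and 91.0 ± 24.8 CPM in control (SD, n = 3 each), and the log2 fold change of -0.996 (SE 0.29) was -1.38 without both R2 libraries (SE 0.21, edgeR adjusted p = 0.00442). CCNB1, which encodes the CDK1 partner cyclin B1, measured 159, 228 and 203 CPM in KO, against 347, 217 and 292 CPM in control. Here the groups overlapped, because control R2 was below KO R2, and without both R2 libraries CCNB1 fell, at -0.85 on the log2 scale (SE 0.16, edgeR adjusted p = 0.0086). CDCA3, a subunit of a ligase that degrades WEE1, measured 29.8, 45.0 and 40.5 CPM in KO and 68.2, 46.6 and 66.8 CPM in control, without overlap, and CCNB2, encoding cyclin B2, 48.6, 73.3 and 62.6 CPM in KO and 98.5, 69.0 and 77.1 CPM in control, with overlap. Both fell without both R2 libraries, CDCA3 at -0.97 (SE 0.17, edgeR adjusted p = 0.0071) and CCNB2 at -0.69 (SE 0.17, edgeR adjusted p = 0.0257). CCNA2, encoding cyclin A2, and CDC25C, encoding a CDK1-activating phosphatase, also had every KO library below every control library, at 37.1, 49.3 and 55.3 CPM against 72.7, 63.6 and 64.9 CPM for CCNA2 and at 10.9, 9.74 and 10.4 CPM against 13.5, 12.5 and 11.5 CPM for CDC25C. Neither was called without both R2 libraries. CDC25B, another phosphatase of CDK1, had a different order of libraries. It measured 328, 302 and 355 CPM in KO and 323, 393 and 283 CPM in control, so that the libraries with more DAPK3 RNA were the lowest, and its log2 fold change was -0.02 (SE 0.14) with all libraries and 0.14 (SE 0.12) without both R2.

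The pair of transcription factors had small differences, and neither was called in either comparison. FOXM1, a forkhead activator of late cell cycle genes, measured 146, 206 and 218 CPM in KO, against 259, 248 and 182 CPM in control. MYBL2, the MuvB partner B-Myb, measured 91.6, 153 and 135 CPM in KO and 169, 133 and 136 CPM in control. In both the groups overlapped, with KO R1 apart as the lowest library. For MYBL2, but not FOXM1, the 3 libraries with more DAPK3 RNA lay above the other 3. The margin was narrow, with control R3 at 135.7 CPM and KO R3 at 134.7 CPM. In log2 fold change, FOXM1 was at -0.27 (SE 0.20) with all libraries and -0.30 (SE 0.23) without both R2, and MYBL2 at -0.21 (SE 0.21) and -0.46 (SE 0.20).

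The 6 mitotic and checkpoint kinases divided into 2 patterns by the order of all 6 libraries. PLK1, the Polo-like kinase of centrosomes and kinetochores (chr16:23677656-23690367, plus strand), measured 54.9, 71.9 and 91.0 CPM in KO, against 113, 114 and 109 CPM in control. AURKA, a spindle pole kinase, measured 64.2, 75.8 and 80.0 CPM in KO and 108, 83.6 and 87.5 CPM in control, and AURKB, the kinase of the chromosomal passenger complex, 18.2, 23.2 and 29.7 CPM in KO and 34.4, 36.4 and 34.2 CPM in control. For these 3 every KO library lay below every control library, control R2 included. PLK1 averaged 72.6 ± 18.0 CPM in KO and 112 ± 2.81 CPM in control (SD, n = 3 each), with a log2 fold change of -0.63 (SE 0.18), and none of the 3 was called without both R2 libraries, where PLK1 was at -0.64 (SE 0.22, edgeR adjusted p = 0.0734). In the checkpoint kinases TTK, BUB1 and BUB1B, the 3 libraries with more DAPK3 RNA lay above the other 3, against 21.2% of all genes. Within each level of DAPK3 RNA, KO was below control for these 3 and for all 6 kinases, against 19% of all genes. TTK, which starts checkpoint signalling at kinetochores, measured 19.6, 32.0 and 22.0 CPM in KO and 58.1, 25.7 and 49.6 CPM in control. KO R2 was above control R2, and the groups overlapped. BUB1B, a checkpoint inhibitor of the APC/C, measured 45.8, 68.5 and 54.5 CPM in KO and 120.2, 64.9 and 108 CPM in control, in the same order. Without both R2 libraries all 3 were called lower, with log2 fold changes of -1.40 for TTK (SE 0.15, edgeR adjusted p = 0.00111), -1.21 for BUB1B (SE 0.14, edgeR adjusted p = 0.00141) and -0.96 for BUB1 (SE 0.13, edgeR adjusted p = 0.00248).

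Partners of the checkpoint and the APC/C were the role with the smallest differences, where the median log2 fold change was -0.17 with all libraries and -0.33 without both R2, and 0 of 5 were called in either. CDC20, the APC/C activator that the checkpoint inhibits, measured 174, 231 and 265 CPM in KO, against 297, 268 and 243 CPM in control. BUB3, a checkpoint scaffold protein, measured 168, 170 and 184 CPM in KO and 203, 178 and 190.3 CPM in control, and UBE2C, the ubiquitin-conjugating enzyme of the APC/C, 50.6, 61.6 and 55.6 CPM in KO and 70.0, 58.4 and 60.4 CPM in control. Each of the 3 had KO R1 as its lowest and control R1 as its highest library, by less than 2-fold. MAD2L1, the checkpoint effector MAD2, measured 44.1, 48.5 and 64.3 CPM in KO and 55.9, 63.2 and 45.1 CPM in control, with no order by label or by DAPK3 RNA. Its log2 fold change was -0.07 (SE 0.19) with all libraries and 0.07 (SE 0.20) without both R2. PTTG1, encoding the separase inhibitor securin, measured 62.1, 69.2 and 86.6 CPM in KO and 104.5, 104.6 and 85.2 CPM in control, and was lower at an unadjusted edgeR p of 0.0297 with all libraries, without being called.

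Kinesins held both ends of the members' range with all libraries. KIF20A, a motor needed for cytokinesis (ENSG00000112984, chr5:138178719-138187715, plus strand), measured 23.7, 43.3 and 34.2 CPM in KO, against 148, 58.4 and 114 CPM in control. Every KO library lay below every control library, and control R2 was much nearer to KO than to control R1 and R3. The means were 33.7 ± 9.83 CPM in KO and 107 ± 45.1 CPM in control (SD, n = 3 each). On the log2 scale the difference was -1.66 (SE 0.38, edgeR adjusted p = 0.635) with all libraries and -2.20 (SE 0.21, edgeR adjusted p = 0.000745) without both R2, in each case the lowest among the 54 members. KIF11, which pushes spindle poles apart, and KIF14, a motor of cytokinesis, had the same order of libraries, at 48.7, 66.4 and 59.7 CPM in KO against 103, 71.8 and 95.5 CPM in control for KIF11, and 35.3, 45.5 and 41.3 CPM in KO against 66.2, 46.8 and 57.9 CPM in control for KIF14. KIF23, the motor of the centralspindlin complex, measured 81.1, 119.9 and 93.1 CPM in KO and 126, 84.9 and 128 CPM in control, so KO R2 stood with control R1 and R3. KIF2C, which depolymerises microtubules, measured 81.2, 94.4 and 84.8 CPM in KO and 109.5, 87.7 and 99.3 CPM in control, and was not called without both R2 libraries, at -0.36 (SE 0.12, edgeR adjusted p = 0.0568). KIF18A, a motor that limits chromosome oscillation, was the 1 member above 0 with all libraries, at 34.5, 43.4 and 39.5 CPM in KO and 39.9, 33.8 and 29.8 CPM in control, and it was not called (log2 fold change 0.18, SE 0.16). Without both R2 libraries, 7 of the 9 kinesins were called lower, including KIF15 at -0.89, which keeps spindle poles apart beside KIF11, KIF4A at -0.71, a chromosome-bound motor, and KIF20B at -0.68, a motor of cytokinesis.

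**Figure D5:**
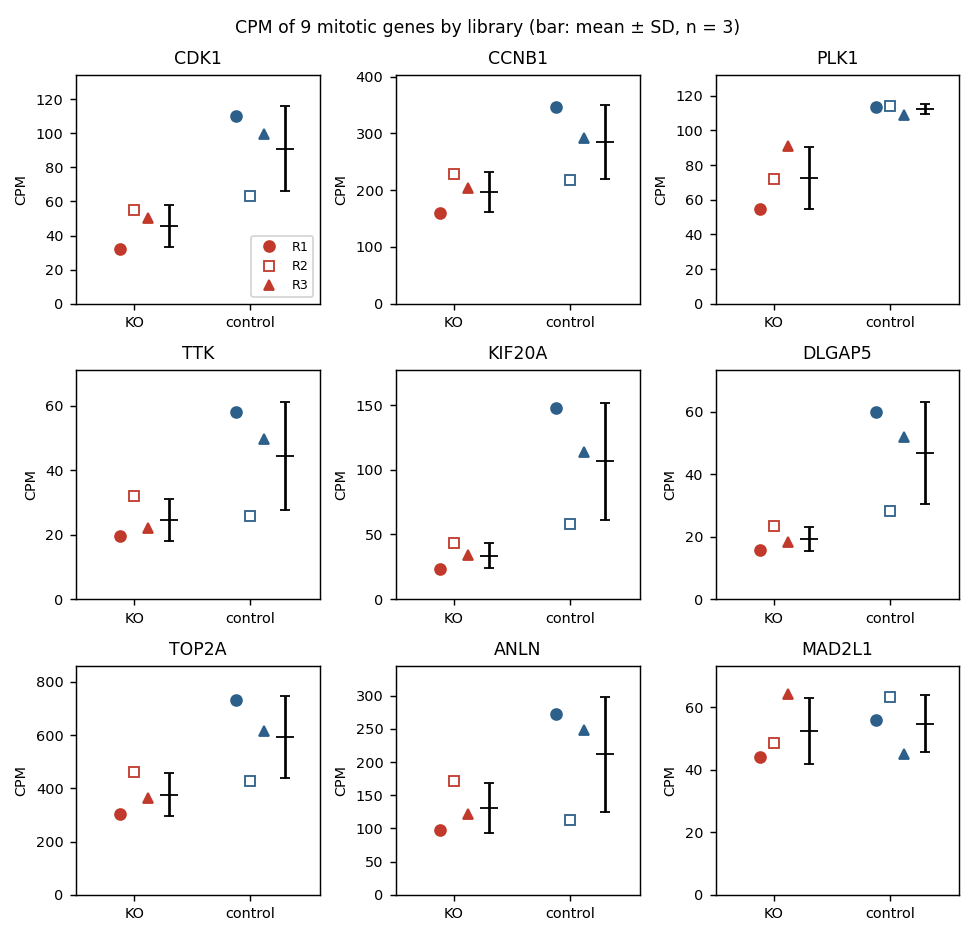
CPM of 9 members in each library (vertical axes, CPM from 0; points, the 3 libraries labelled KO on the left and the 3 labelled control on the right, R2 as open squares; bars, mean ± SD, n = 3). KIF20A measures 23.7 to 43.3 CPM in KO and 58.4 to 148 CPM in control, while MAD2L1 measures 44.1 to 64.3 CPM in KO and 45.1 to 63.2 CPM in control.

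Kinetochore and centromere genes had a median log2 fold change of -0.46 with all libraries and -0.86 without both R2, where 5 of 6 were called lower. SPC25, a subunit of the NDC80 complex that grips microtubules, measured 4.41, 7.78 and 6.11 CPM in KO, against 15.7, 9.32 and 13.1 CPM in control, and it was the member with the fewest counts (83.5 in the lowest library). All KO libraries were below all control libraries, and the log2 fold change was -1.06 (SE 0.30) with all libraries and -1.48 (SE 0.24, edgeR adjusted p = 0.00549) without both R2. CENPF, a large protein of the outer kinetochore, measured 129, 188 and 138 CPM in KO and 288, 167 and 246 CPM in control. CENPE, the kinetochore motor that moves chromosomes to the spindle equator, measured 57.0, 70.9 and 57.2 CPM in KO and 92.3, 59.8 and 76.6 CPM in control. For both, KO R2 was above control R2 and the groups overlapped, and without both R2 libraries CENPF fell to -1.03 (SE 0.12, edgeR adjusted p = 0.00188) and CENPE to -0.59 (SE 0.13, edgeR adjusted p = 0.0164) in log2 fold change. CENPA, the histone H3 variant of centromeres, had the largest ratio of highest to lowest KO library in the role, at 10.8, 26.3 and 17.7 CPM in KO and 32.3, 19.9 and 21.7 CPM in control, and was called at -0.95 without both R2 libraries (SE 0.28, edgeR adjusted p = 0.0439). Of the NDC80 complex subunits beside SPC25, NDC80 was called at -0.78 (SE 0.20, edgeR adjusted p = 0.0288), and NUF2 missed the threshold at -0.64 (SE 0.20).

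The passenger complex partners went with the label. BIRC5, encoding survivin, measured 70.1, 110.2 and 102 CPM in KO and 146, 111 and 116 CPM in control, and CDCA8, encoding borealin, 39.9, 45.5 and 45.7 CPM in KO and 71.1, 53.1 and 60.5 CPM in control. In both the groups did not overlap, by little for BIRC5, where KO R2 and control R2 were nearly equal. The log2 fold change with all libraries was -0.41 for BIRC5 and -0.50 for CDCA8. Without both R2 libraries CDCA8 was called lower, at -0.65 (SE 0.14, edgeR adjusted p = 0.0155). BIRC5 was not called there, at -0.64 (SE 0.20, edgeR adjusted p = 0.0506).

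Spindle and microtubule genes had the lowest median of the roles without both R2 libraries, -0.95, against -0.48 with all libraries, and 7 of the 9 were called lower. DLGAP5, a spindle microtubule protein also called HURP (ENSG00000126787, chr14:55148112-55191678, minus strand), measured 15.7, 23.3 and 18.5 CPM in KO, against 59.8, 28.4 and 52.1 CPM in control. Its groups did not overlap, at 19.2 ± 3.86 CPM in KO and 46.7 ± 16.4 CPM in control (SD, n = 3 each), and its log2 fold change of -1.29 (SE 0.31) was -1.74 without both R2 libraries (SE 0.15, edgeR adjusted p = 0.00055). NUSAP1, which bundles spindle microtubules, measured 48.9, 69.5 and 59.7 CPM in KO and 135, 72.3 and 114 CPM in control, with control R2 just above KO R2. PRC1, which cross-links microtubules of the central spindle, measured 106, 192 and 142 CPM in KO and 249, 145 and 219.7 CPM in control, and here KO R2 was well above control R2. TPX2, the activator of AURKA, measured 184, 271 and 247 CPM in KO and 347, 259 and 282 CPM in control, again with the R2 libraries in the reverse order. NUSAP1 and PRC1 fell without both R2 libraries, with log2 fold changes of -1.23 (SE 0.15, edgeR adjusted p = 0.00185) and -0.95 (SE 0.16, edgeR adjusted p = 0.00681). ASPM, a spindle pole protein, measured 59.6, 75.0 and 52.0 CPM in KO and 102, 53.1 and 110.1 CPM in control, and GTSE1, a microtubule-tip protein of mitosis, 14.7, 24.2 and 19.2 CPM in KO and 39.5, 23.2 and 39.1 CPM in control. CKAP2L, a spindle pole protein, was the 1 member of the role with its highest value in KO R2, at 29.3, 61.3 and 40.6 CPM in KO and 59.6, 43.8 and 46.9 CPM in control. HMMR and CKAP2 were not called in either comparison. TPX2 was called at -0.57 (SE 0.17) and lost its call when KO R1 or control R1 was also left out, at edgeR adjusted p = 0.156 and 0.184.

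In all 3 cytokinesis genes the 3 libraries with more DAPK3 RNA lay above the other 3, against 21.2% of all genes. For 1 of them, RACGAP1, KO was also below control within each level of DAPK3 RNA, against 19% of all genes. ANLN, the furrow scaffold anillin, measured 97.7, 172 and 122 CPM in KO, against 273, 113 and 249 CPM in control. ECT2, the exchange factor that activates RhoA at the furrow, measured 89.4, 131 and 109.5 CPM in KO and 152, 109.1 and 144 CPM in control. RACGAP1, the centralspindlin partner of KIF23, measured 75.0, 104 and 89.1 CPM in KO and 144, 91.7 and 116 CPM in control. For ANLN the 3 libraries with less DAPK3 RNA lay between 97.7 and 122 CPM and the others between 172 and 273 CPM. The log2 fold change of ANLN was -0.70 (SE 0.37) with all libraries and -1.28 (SE 0.14, edgeR adjusted p = 0.00135) without both R2, and all 3 genes were called lower there.

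The 5 genes of condensin and the chromosome were all called lower without both R2 libraries, where their median log2 fold change was -0.83, beside -0.53 with all libraries. TOP2A, the topoisomerase that untangles sister chromatids (chr17:40388516-40417950, minus strand) and the member with the most counts, measured 305, 462 and 363 CPM in KO, against 733, 427 and 617 CPM in control. MKI67, the proliferation antigen Ki-67 that coats mitotic chromosomes, measured 257, 316 and 253 CPM in KO and 476, 297 and 416 CPM in control. In both, control R2 fell inside the range of KO, and the log2 fold change was -0.66 (SE 0.25) for TOP2A and -0.53 (SE 0.20) for MKI67 with all libraries, and -1.04 (SE 0.14, edgeR adjusted p = 0.00292) and -0.83 (SE 0.12, edgeR adjusted p = 0.00339) without both R2. Of the condensin subunits, NCAPG had every KO library below every control library, at 40.8, 54.5 and 57.9 CPM in KO and 97.3, 69.0 and 74.1 CPM in control. NCAPH measured 29.9, 49.98 and 33.8 CPM in KO and 63.3, 38.4 and 58.1 CPM in control. SMC4 measured 203, 321 and 257 CPM in KO and 403, 279 and 335 CPM in control. In both, the 3 libraries with more DAPK3 RNA lay above the other 3, against 21.2% of all genes. Within each level of DAPK3 RNA, KO was below control for all 5 genes of the role, against 19% of all genes.

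Set beside the promoters, the 41 members with a CHR word in their window had a median log2 fold change of -0.49 with all libraries and -0.78 without both R2, where 31 were called. The 5 with a window and no CHR word had medians of -0.51 and -0.55, with 1 called, and the 8 without a window had -0.34 and -0.52, with 3 called. Of all genes tested without both R2 libraries, 15.2% were called lower and 12.2% higher. The groups of members were not tested against each other, and nothing is read about the CHR word from these counts. Of the 54 members, 19 overlap an annotated exon on the opposite strand, among them KIF20A, PLK1, FOXM1, ANLN, PRC1 and SMC4, and without a stated strand setting reads of both genes cannot be told apart there.

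A list of 98 other genes of the same processes, none of them members, was read for comparison, and all 98 were tested. In the labelled comparison 25 (25.5%) were lower at an unadjusted p under 0.05 and 1 higher, E2F4, against 4.17% and 3.49% of all genes. edgeR called 0 and DESeq2 5, and the median log2 fold change was -0.25. Without both R2 libraries, 38 (38.8%) were called lower and 7 higher, against 15.2% and 12.2% of all genes, with a median of -0.40. Of 30 other kinetochore genes, 15 were called lower and 2 higher, beside the same shares of all genes. CENPI, a subunit of the inner kinetochore, was at -1.56 (edgeR adjusted p = 0.002), and CASC5, the outer kinetochore scaffold also called KNL1, at -1.27 (edgeR adjusted p = 0.00156). The subunits of the MIS12 complex were divided. PMF1 and MIS12 were called higher, at 0.94 (edgeR adjusted p = 0.00524) and 0.77 (edgeR adjusted p = 0.0219). DSN1 was called lower, at -0.906 (edgeR adjusted p = 0.0058), and NSL1, at -0.405, was not called.

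Of the 14 other spindle and cytokinesis genes 8 were called lower, of the 12 other condensin and cohesin genes 6, and of the 7 other kinases and kinesins 3. In each list 0 were called higher, beside 15.2% of all genes called lower and 12.2% higher. NCAPD3, a subunit of condensin II, was at -1.22 (edgeR adjusted p = 0.0017) and CIT, the citron kinase of cytokinesis, at -1.18 (edgeR adjusted p = 0.00233). Among 21 genes of mitotic entry and exit outside the members, 5 were called lower and 3 higher, beside 15.2% and 12.2% of all genes. FBXO5, encoding the APC/C inhibitor EMI1, was at -0.89 (edgeR adjusted p = 0.009), and WEE1, the kinase that restrains CDK1, at -0.70 (edgeR adjusted p = 0.0172), while the APC/C subunits ANAPC10 and CDC16 were at 0.66 (edgeR adjusted p = 0.0401) and 0.41 (edgeR adjusted p = 0.0439), and the CDK-binding protein gene CKS1B at 0.40 (edgeR adjusted p = 0.045). Of 14 genes of MuvB, its pocket proteins and NF-Y, 1 was called lower and 2 higher, beside the same shares of all genes, and nothing is read from these counts about the list. RBL1, encoding the pocket protein p107, was at -0.96 (edgeR adjusted p = 0.00589), E2F4, its partner in repression, at 0.59 (edgeR adjusted p = 0.00944), and NFYA, a subunit of the CCAAT-binding NF-Y, at 0.63 (edgeR adjusted p = 0.0109).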

How the data were processed

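Gene-level RSEM expected counts, deposited by the authors and not normalized, were analysed for 6 polyA RNA libraries (3 labelled KO, 3 labelled control). RSEM, Bowtie2, edgeR and the GRCh38 build are named per the submitters' processing notes, while the sources used here do not give versions, annotation release or strand setting. Between 9.42% and 10.6% of values in a library were not whole, and counts were rounded.

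edgeR 4.0.16 (R 4.3.3) with TMM factors (0.991 to 1.009), filterByExpr and no block tested KO against control, and a gene was called at an adjusted p under 0.05 (Benjamini-Hochberg, over all tested genes). SE is the log2 fold change divided by the square root of its F statistic. CPM used TMM-scaled totals, and centred values a prior count of 2. The steps were tested on simulated data. The members and lists were chosen with earlier results of these data known. By rule, full values were given for the 2 members of each role with the highest level and for the 6 largest and 4 smallest labelled changes, and the other lists could name the 4 genes with the smallest p each. Others were named after their values were seen. Alternatives were RLE scaling, library totals alone, no filter, CPM of at least 1 in a group, a replicate block, DESeq2 1.42.0, limma-voom (limma 3.58.1), each library left out, both R2 libraries left out, and DAPK3 as a covariate. Each expected count covers reads shared with near-identical genes only by estimate. Gene positions are from GENCODE release 29 and promoter windows from RefSeq GRCh38.p14.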

Additional observations from a re-analysis of the deposited data

How the results depend on the processing

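In the labelled comparison DESeq2 called 124 genes, 2 members and 5 other pathway genes, and without both R2 libraries edgeR called 4055 genes, 35 members and 45 other pathway genes, where the test of all 6 libraries called 0 of each. Members lower at an unadjusted p under 0.05 numbered 21 with all libraries (against 4.17% of all genes), 44 without both R2 (against 21.3%) and 5 with a replicate block (against 1.03%). With 1 library left out they numbered 9 to 35, against 1.42% to 9.06% of all genes. Without both R2 the role medians moved beyond the spread between libraries in 4 roles, to -0.325 for checkpoint partners and APC/C, -0.714 for kinesins, -0.863 for kinetochore genes and -0.946 for spindle genes. CDC25B changed sign to 0.143 and MAD2L1 to 0.0747 without both R2, and with 1 library left out they ran from -0.131 to 0.0905 and from -0.252 to 0.0332. The cause of these changes was not tested.

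Without both R2 libraries, leaving out 1 more gave 2543 to 3700 genes called, 22 to 46 members, 26 to 55 other pathway genes, a members' median of -0.901 to -0.552 and MAD2L1 values of -0.223 to 0.33. In those fits 1 group held a lone library, which is assumed to vary like the other group. Under RLE scaling, library totals, no filter, CPM of at least 1, DESeq2 and limma-voom, 30 to 39 members were called there, 0 of them higher.

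Same-numbered libraries deviated from their group means with correlations of -0.654, -0.853 and -0.701. KO R2 deviated with control R1 and R3 (0.773 and 0.638), and control R2 with KO R1 and R3 (0.61 and 0.793). Such R2 deviations make same-numbered values negative, so they cannot decide whether the replicate numbers pair the libraries. For R1 the correlation without both R2 libraries was -0.315. Without both R2 libraries the replicate block called 2705 genes and 33 members, of which 32 were among the 35. A crossed replicate block there, chosen after seeing the data, called 6149 genes, 49 members and 64 other pathway genes. With 3 libraries of each label, changes that are small beside the spread between libraries were not detectable at this depth.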
